A study of Mus musculus with 12 samples.

Results

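The inner root sheath of the hair follicle was represented by 8 genes: the type I keratins Krt25, Krt26, Krt27 and Krt28, the type II keratins Krt71, Krt72 and Krt73, and Tchh, which encodes trichohyalin. The genes were chosen by name, with earlier results of these data known. Shares over all genes are therefore set beside their counts as a scale and not as a test. Each symbol was carried alone by exactly 1 probe set, a group of short probes that report 1 transcript, so 8 of 45037 probe sets and 8 of 18193 genes are described. No probe set of the 8 was shared with another gene.

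The inner root sheath is the epithelial sleeve that lies between the growing hair shaft and the outer root sheath, and it is built of a cuticle, Huxley's layer and Henle's layer. Its cells make type I and type II keratins, which pair into filaments, and trichohyalin, a granule protein that is modified by peptidylarginine deiminases and cross-linked to the keratin filaments by transglutaminases. The sheath hardens before the shaft does, moulds it on its way to the surface and is then shed, so its transcripts mark follicles in which hair is being made.

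Dermis of C57Bl6/CBA F1 mice was profiled on 12 Affymetrix arrays, 3 in each group, and the groups P1 Back, P1 Tail, P5 Back and P5 Tail are named for the day after birth and the skin region. All mice were of that strain, and the labels give no other genotype and no treatment. Tail skin was loosened in an EDTA solution and back skin in dispase and trypsin, after which the dermis was taken off with forceps and digested to single cells, so site and separation solution cannot be told apart. RNA came from triplicate mice, the same protocol text accompanies every sample and speaks of P1, and how the P5 samples were prepared is not stated separately. Inner root sheath cells are epithelial cells inside follicles, and in RNA of bulk tissue fewer cells of a type and less RNA per cell cannot be told apart.

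Values are RMA values on a log2 scale from which the median of the 12 arrays was taken for each probe set. A value of 0 is therefore the middle of the 12 arrays, differences between arrays can be read, and levels cannot: neither the signal over background nor the absence of another cell type's markers is given. The arrays had a spread over probe sets of 0.227 to 0.495 (SD), widest on P5 Tail 2. Cartilage genes stood high on P1 Back 1 and P1 Back 6, with list means of 2.83 and 2.44 against 0.03 on P1 Back 5. P5 Back 3 also stood apart, with a cartilage mean of 1.29 against 0.06 and 0.19 on P5 Back 1 and 2. Skeletal muscle means split the same arrays, at 0.47, -1.90 and 0.79 on P1 Back 1, 5 and 6. On P5 Back 1, 2 and 3 they were -1.98, -1.88 and 1.11. Medians of other gene lists are also given without P1 Back 1 and P1 Back 6.

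Sites are named as the labels give them. Hoxc8, a homeobox gene of trunk position, read 2.78 (SE 0.14) higher at P1 on the arrays labelled tail than on those labelled back (limma adjusted p = 5e-07), and Hoxd11, a homeobox gene of posterior position, differed by -3.09 (SE 0.17, adjusted p = 6.8e-07). Genes of fat cells were also higher on the arrays labelled tail at P1, whereas the study describes fat metabolism as more strongly represented in back dermis. For fat genes the labels therefore run opposite to the study. The 2 homeobox genes kept their direction at P5. Hoxc8 read 1.47 to 1.83 on tail and -1.44 to -1.24 on back arrays, Hoxd11 -1.87 to -1.18 and 1.52 to 1.91. The trunk gene was thus higher under the tail label and the posterior gene under the back label. Of 13 positional genes 9 were called at each age, where 3.97% of all genes were at P1 and 6.91% at P5. Whether the site labels are exchanged was not tested. The groups were not exchanged. Every difference below, between sites or with age in back or in tail, follows the labels.

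The 8 genes lie on 3 chromosomes (mouse build GRCm38.p6, RefSeq). Krt25, Krt26, Krt27 and Krt28 are neighbours on chromosome 11, at chr11:99315516-99322951, chr11:99328484-99337965, chr11:99345565-99351118 and chr11:99365007-99374903. Krt71, Krt72 and Krt73 are neighbours on chromosome 15, at chr15:101733949-101743097, chr15:101776172-101786520 and chr15:101793304-101802360, and Tchh stands alone at chr3:93442330-93449077. All 7 keratin genes are read from the minus strand and Tchh from the plus strand.

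The 120 bases before the start of 5 genes are shown as examples, taken from each chromosome that holds the genes. All are from RefSeq (GRCm38.p6), 5′ to 3′ on the gene's own strand and ending at the base before the start, and capitals mark TATAAA. The windows are chr11:99322952-99323071 (minus) for Krt25, chr11:99374904-99375023 (minus) for Krt28, chr15:101743098-101743217 (minus) for Krt71, chr15:101802361-101802480 (minus) for Krt73 and chr3:93442210-93442329 (plus) for Tchh.
Krt25: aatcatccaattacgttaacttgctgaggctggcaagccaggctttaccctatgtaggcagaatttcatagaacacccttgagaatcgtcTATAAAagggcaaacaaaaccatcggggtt
Krt28: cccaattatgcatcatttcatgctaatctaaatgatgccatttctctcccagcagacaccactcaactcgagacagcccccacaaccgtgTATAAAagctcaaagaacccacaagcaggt
Krt71: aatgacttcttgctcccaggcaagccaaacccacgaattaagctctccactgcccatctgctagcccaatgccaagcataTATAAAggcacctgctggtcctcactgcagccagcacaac
Krt73: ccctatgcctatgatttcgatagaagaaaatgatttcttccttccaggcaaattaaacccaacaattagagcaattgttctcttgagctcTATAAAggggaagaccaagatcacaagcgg
Tchh: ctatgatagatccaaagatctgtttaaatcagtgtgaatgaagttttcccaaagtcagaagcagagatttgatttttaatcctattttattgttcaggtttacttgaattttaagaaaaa

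TATAAA, the core of the TATA box, ended 25 bases before the start in Krt25, Krt28 and Krt73, 35 bases before it in Krt71, and was not in the window of Tchh. Among the genes not shown, it lay 30 to 25 bases before the start of Krt26 and 15 to 10 bases before that of Krt27. In the 250 bases before the start, on either strand, TATAAA was found in 7 of the 8 genes and in 12.4% of 32851 mouse promoters. Of the 7, Krt72 held it only on the other strand, 203 to 198 bases before its start. AGATAA, letters bound by GATA factors, was in 5 of the 8 genes (Krt25, Krt27, Krt71, Krt73 and Tchh) and in 9.99% of all promoters. TAATTA, bound by homeodomain factors, was in 4 (Krt25, Krt28, Krt71 and Krt73) and in 4.84%. CTTTGA, bound by Lef1 and Tcf factors, was in 2 (Krt28 and Tchh) and in 13.8%. AGATAA overlapped TAATTA by 1 base in Krt71 and CTTTGA by 2 bases in Tchh. These are matches of letters and not measured sites.

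Among the type I keratins, Krt25 read -0.30, -0.04 and 0.14 on the P1 Tail arrays, -0.69, -0.56 and -0.65 on P1 Back, 0.10, 0.01 and -0.01 on P5 Tail, and 0.28, 0.40 and 0.24 on P5 Back (arrays in the order 4, 5, 6 for P1 Tail, 1, 5, 6 for P1 Back, 2, 3, 4 for P5 Tail and 1, 2, 3 for P5 Back, here and below). P1 Back was below every other array, and the P5 Back arrays were above all P5 Tail arrays. Krt26 read -0.42, -0.11 and 0.19 on P1 Tail, -1.23, -0.71 and -0.79 on P1 Back, 0.42, 0.45 and 0.07 on P5 Tail, and -0.07, 0.43 and 0.08 on P5 Back. Its P1 Back arrays were again the lowest, and its other groups overlapped.

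Krt27, which shares its row of genes with Krt25, Krt26 and Krt28, read -0.41, -0.06 and 0.06 on P1 Tail, -0.82, -0.60 and -0.66 on P1 Back, 0.16, 0.14 and -0.16 on P5 Tail, and 0.13, 0.31 and 0.23 on P5 Back. Only P1 Back stood clear of the other groups. Krt28 read -0.34, -0.24 and 0.21 on P1 Tail, -1.26, -1.06 and -1.07 on P1 Back, 0.54, 0.08 and -0.08 on P5 Tail, and 0.21, 0.39 and 0.19 on P5 Back. The gap between P1 Back and every other array was wide for this gene, and the highest P1 Tail array reached the P5 values.

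Of the type II keratins, which are the filament partners of the type I chains, Krt71 read -0.69, -0.27 and 0.08 on P1 Tail, -0.99, -0.89 and -0.87 on P1 Back, 0.64, 0.02 and -0.02 on P5 Tail, and 0.43, 0.90 and 0.73 on P5 Back. The lowest P1 Tail array came close to the P1 Back arrays, and the P5 groups overlapped through the highest P5 Tail array. Krt72 read -0.93, -0.34 and -0.13 on P1 Tail, -1.61, -1.30 and -1.36 on P1 Back, 1.16, 0.61 and 0.40 on P5 Tail, and 0.13, 0.50 and 0.49 on P5 Back. It was the member in which no P1 array of either site reached a P5 array. Krt73 read -0.34, -0.31 and 0.26 on P1 Tail, -1.01, -0.76 and -0.84 on P1 Back, 0.27, -0.04 and 0.04 on P5 Tail, and 0.24, 0.55 and 0.47 on P5 Back. P1 Back was apart, and the highest P1 Tail array lay inside the range of the P5 arrays.

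Tchh, the granule protein of the sheath, read -0.40, -0.13 and 0.47 on P1 Tail, -1.33, -0.93 and -1.15 on P1 Back, 0.50, 0.66 and -0.17 on P5 Tail, and 0.13, 0.46 and 0.39 on P5 Back. Apart from the low P1 Back arrays its groups overlapped. The P1 Tail and P5 Tail arrays of this gene were spread more widely (SD 0.44 in both, n = 3) than its back arrays (SD 0.20 at P1 and 0.17 at P5, n = 3).

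**Figure D1:**
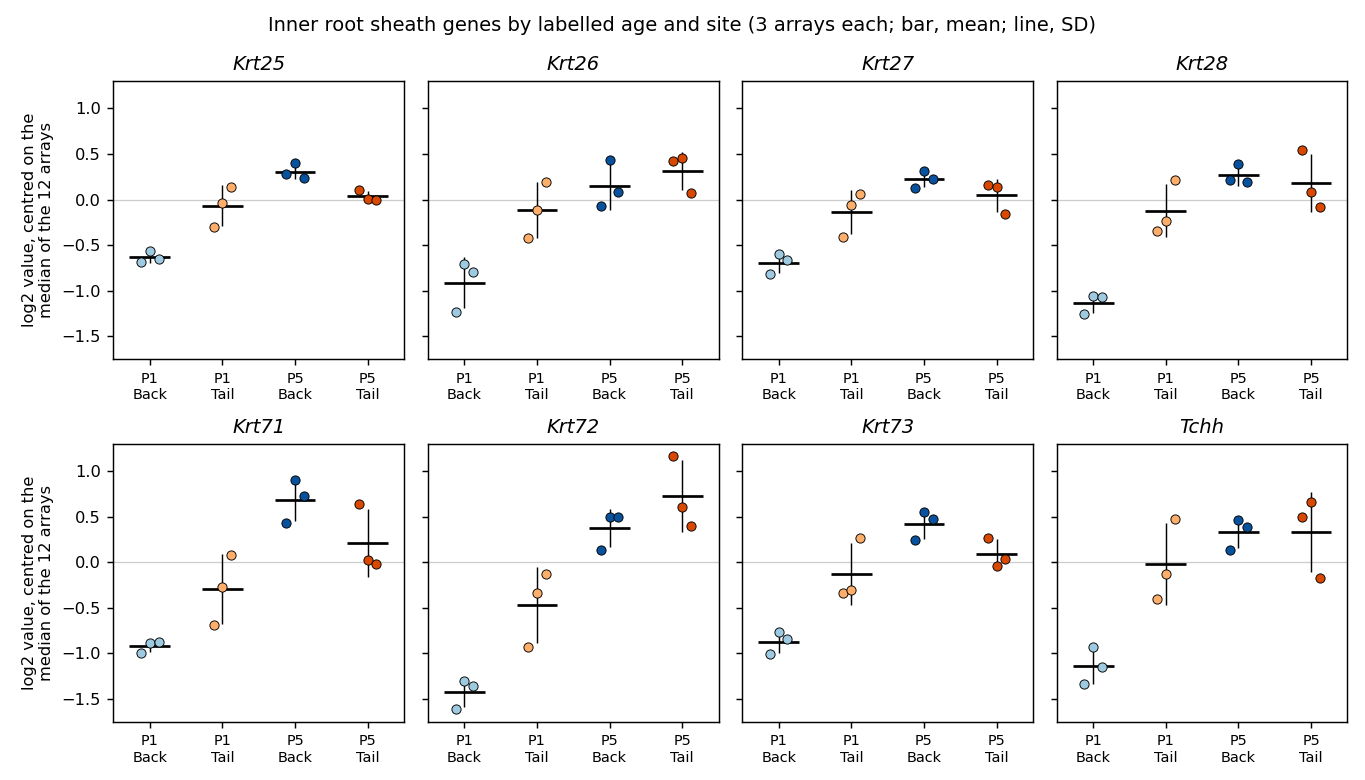
Centred log2 value (y axis) of each of the 8 genes on each of the 12 arrays, by labelled age and site (x axis). Points are arrays, the bar is the mean and the line the SD of 3 arrays. In every panel the 3 P1 Back arrays are the lowest of the 12.

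By group means, P1 Back was lowest and P1 Tail next in all 8 genes. The P5 groups came above both, with P5 Back above P5 Tail in 5 genes and P5 Tail above P5 Back in Krt26, Krt72 and, by 0.01, in Tchh. P1 Back and P1 Tail differed past the threshold in 7 of the 8. The neighbours P1 Tail and P5 Tail did not differ past it in the 5 genes with the first order, nor did the P5 groups in any gene. P1 Tail and P5 Back, neighbours for Krt26, Krt72 and Tchh, were not compared by a test: their arrays overlapped for Krt26 and Tchh and did not for Krt72.

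The first comparison asked how tail and back dermis differ 1 day after birth. Inner root sheath transcripts were higher on the P1 arrays labelled tail: 7 of the 8 genes passed the limma threshold (adjusted p under 0.05 over all genes, Benjamini-Hochberg), where 2.06% of all genes were called higher. Tchh differed by 1.12 on the log2 scale (SE 0.23, adjusted p = 0.017), which is 2.17-fold. Krt28 differed by 1.01 (SE 0.17, adjusted p = 0.0041), or 2.02-fold, and Krt72 by 0.96 (SE 0.22, adjusted p = 0.027). The remaining type I keratins differed less, Krt26 by 0.80 (SE 0.19, adjusted p = 0.033), Krt25 by 0.56 (SE 0.11, adjusted p = 0.015) and Krt27 by 0.56 (SE 0.14, adjusted p = 0.037), and Krt73 lay between them at 0.74 (SE 0.16, adjusted p = 0.020).

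Krt71 was the exception, with a difference of 0.63 (SE 0.21, 95% interval 0.18 to 1.07) and an adjusted p of 0.15. In all 8 genes every tail array was above every back array, a separation found in 12.6% of all genes. The median difference of the 8 was 0.77, against -0.04 over all genes. The calls depended on single arrays: 1 gene, Krt28, was still called without P1 Tail 6, without P1 Back 1 or without P1 Back 6, 4 without P1 Tail 5, 5 without P1 Back 5 and 7 without P1 Tail 4. Over all genes, in either direction, 3.97% were called with all arrays and 2.12% to 4.34% in these fits. Whether the calls hold without both P1 Back 1 and P1 Back 6 could not be judged, because P1 Back 5 would stand alone.

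At P5 no difference between sites was called in these genes. None of the 8 passed the limma threshold, where 6.91% of all genes did in one direction or the other, and 2 of the 8, Krt25 and Krt71, had an unadjusted p under 0.05. Both read lower on tail arrays, Krt25 by -0.27 (95% interval -0.52 to -0.02, adjusted p = 0.20) and Krt71 by -0.47 (-0.92 to -0.02, adjusted p = 0.22). Krt73 differed by -0.33 (-0.67 to 0.02), Krt27 by -0.17 (-0.47 to 0.12) and Krt28 by -0.08 (-0.45 to 0.29). Values above 0 were read for Krt72 at 0.35 (-0.13 to 0.83), Krt26 at 0.17 (-0.24 to 0.58) and Tchh at 0.01 (-0.50 to 0.52). In all 8 genes the upper end of the interval was below the difference measured at P1, narrowly so for Krt72 (0.83 against 0.96). The difference at P1 has its own error, so this is no test of a change with age. The direct test is given below, and its interval for Krt72 was -1.29 to 0.07. The median of the 8 was -0.13, against -0.02 over all genes.

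On the arrays labelled back all 8 genes rose between P1 and P5, where 2.22% of all genes were called higher. The type II keratin Krt72 rose by 1.80 on the log2 scale (SE 0.22, limma adjusted p = 0.00062), or 3.48-fold, Krt71 by 1.60 (SE 0.21, adjusted p = 0.00092), or 3.04-fold, and Krt73 by 1.29 (SE 0.16, adjusted p = 0.00064). Tchh rose by 1.46 (SE 0.23, adjusted p = 0.0032), or 2.76-fold. Among the type I keratins Krt28 rose by 1.40 (SE 0.17), Krt26 by 1.06 (SE 0.19), Krt25 by 0.94 (SE 0.11) and Krt27 by 0.92 (SE 0.14), with adjusted p-values from 0.00062 to 0.0067.

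Every P5 back array was above every P1 back array in the 8 genes, as in 14.4% of all genes, and their median rise was 1.34 against 0.01 over all genes. All 8 calls were kept when any 1 of the 6 back arrays was left out. Those fits called 2.08% to 2.91% of all genes in either direction, against 4.25% with all arrays. Whether the calls hold without both P1 Back 1 and P1 Back 6 could not be judged, because P1 Back 5 would stand alone.

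On the arrays labelled tail the same step in age moved 1 of the 8 genes past the threshold, where 3.34% of all genes were called higher. Krt72 rose by 1.19 (SE 0.22, limma adjusted p = 0.0077), or 2.28-fold, and remained called whichever of the 6 tail arrays was left out, at 0.96 to 1.36. The other 7 genes had differences of 0.10 to 0.50 that did not pass, and of these Krt71 at 0.50 (95% interval 0.05 to 0.95) and Krt26 at 0.42 (0.01 to 0.84) had an unadjusted p under 0.05. Krt25 differed least, by 0.10 (-0.14 to 0.35). The median of the 8 was 0.33, against 0.04 over all genes. Krt72 was not called where array weights were used or where only the tail arrays were fitted.

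**Figure D2:**
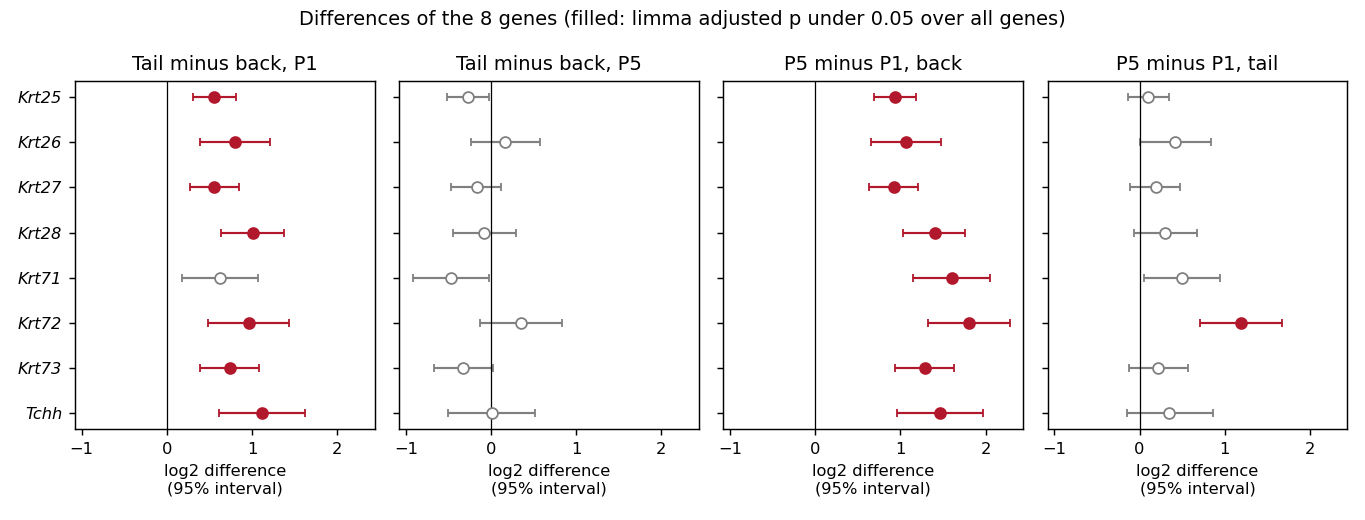
Log2 difference (x axis) with its 95% interval for each of the 8 genes (rows) in the comparisons of site at each age and of age at each site. Filled points passed the limma threshold of 0.05 over all genes. There are 7 filled points for tail minus back at P1, none at P5, 8 for the rise in back and 1, Krt72, for the rise in tail.

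Whether the site difference changed with age was tested directly, as tail minus back at P5 less the same difference at P1. It was negative in all 8 genes, with a median of -0.95 against 0.02 over all genes, and 3 passed the limma threshold, where 0.94% of all genes were called in that direction. The 3 were Krt25 at -0.83 (SE 0.16, adjusted p = 0.016), Krt73 at -1.07 (SE 0.23, adjusted p = 0.023) and Krt28 at -1.10 (SE 0.24, adjusted p = 0.028). Tchh at -1.11 (SE 0.33, adjusted p = 0.11), Krt71 at -1.10 (SE 0.29, adjusted p = 0.071) and Krt27 at -0.73 (SE 0.19, adjusted p = 0.066) had values of similar size and did not pass.

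Krt26 at -0.63 (SE 0.27) and Krt72 at -0.61 (SE 0.31) were nearest to 0, and were also the genes with the highest difference of tail minus back at P5. With 1 array left out, 0 to 5 of the 8 genes passed: 0 without P1 Back 6 or P5 Back 2, 1 without P1 Back 1 or P5 Back 3, and 5 without P1 Tail 4. The number was 6 with the replicate block and 6 with array weights. Over all genes, in either direction, 2.87% passed with all arrays and 1.31% to 4.02% with 1 array left out. The share was 3.79% with the replicate block and 4.22% with array weights.

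Proteins that modify or accompany the sheath, together with regulators of hair follicle layers, gave a list of 16 measured genes. Not all of the 16 belong to the sheath alone. In back from P1 to P5, 8 of the 16 rose and none fell, with a median of 0.77. The trichohyalin-like gene Tchhl1 rose by 2.21 (limma adjusted p = 0.0012), the companion layer keratin Krt75 by 1.69 (adjusted p = 0.00092), and Padi3, a deiminase that acts on trichohyalin, by 1.59 (adjusted p = 0.0062). S100a3, a calcium-binding protein of the hair cuticle, rose by 1.89 (adjusted p = 0.00062). The regulators Dlx3, Foxn1, Sox21 and Msx2 rose by 1.16, 1.06, 0.96 and 0.77 (adjusted p = 0.003 to 0.025), while Gata3, a regulator of sheath cell fate, differed by 0.69 (adjusted p = 0.085).

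Between sites at P1 the same 16 genes split. Tchhl1 was 1.18 higher on tail arrays (limma adjusted p = 0.05 after rounding, on the passing side of the threshold), and Tgm3, a transglutaminase of the sheath and also of the upper epidermis, differed by -2.19 (adjusted p = 0.0078). Krt75 at 0.73 and Padi3 at 0.62 did not pass. The median was 0.24. At P5, 1 of the 16, the protease gene Ctsl, was higher on tail arrays, by 0.42 (adjusted p = 0.045), and none was lower. Over all genes 6.91% were called at P5 in either direction. In tail from P1 to P5 S100a3 was the 1 gene called, with a rise of 1.10 (adjusted p = 0.016), where 5.3% of all genes were called. Both counts are near the share over all genes.

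Hair shaft keratins, made in the layers that the sheath encloses, gave a further list to set beside the 8 genes. In back 10 of 12 measured shaft keratins rose from P1 to P5 (median 2.57), among them Krt31 by 3.08 and Krt83 by 3.07. In tail 7 of 12 rose (median 1.32), beside 1 of the 8 sheath genes. At P1 none of the 12 differed between sites by limma, 2 had an unadjusted p under 0.05, and the median was -0.04. At P5, 7 of the 12 were lower on tail arrays (median -1.17), such as Krt33b by -1.52 (adjusted p = 0.0061) and Krt31 by -1.25 (adjusted p = 0.024), beside none of the sheath genes. Over all genes, 474 of 18193 were called lower on tail arrays at P5. No test of the difference between the lists was made.

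Markers of other skin cells also moved. Of 8 melanocyte genes, 6 were higher on tail arrays at P1 (median 0.85) and 4 rose in back with age (median 0.67), and the list means ran from -0.89 to -0.71 on P1 Back, -0.05 to 0.38 on P1 Tail, 0.00 to 0.36 on P5 Tail and -0.09 to 0.19 on P5 Back. The corresponding means of the 8 sheath genes were -1.12 to -0.85, -0.48 to 0.16, 0.01 to 0.47 and 0.18 to 0.49. Like the sheath genes, the melanocyte list was lowest on P1 Back, and all of its P1 Tail arrays were above all of its P1 Back arrays. All 7 adipocyte genes were higher on tail arrays at P1 (median 2.76), with list means of 1.06 to 1.69 on P1 Tail and -1.33 to -1.32 on P1 Back. With age, 5 of the 7 rose in back (median 0.90), as the sheath genes did, and 5 fell in tail (median -1.09), with list means of -0.47 to -0.05 on P5 Back and -0.01 to 0.36 on P5 Tail.

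Genes of the epidermis itself went the other way in back. Of 13 suprabasal epidermal genes, 7 fell there between P1 and P5 and none rose (median -1.63), and their list means were 0.88 to 1.26 on P1 Back and -1.35 to -0.46 on P5 Back. On P1 Tail these means spread from -1.61 on array 4 to 0.51 on array 5, with -0.34 on array 6, and on P5 Tail from -0.05 to 0.47. Of 12 genes of basal and outer root sheath epithelium, 6 fell in back (median -0.38) and 6 rose in tail (median 0.63), with list means of -0.04 to 0.21 on P1 Back, -0.46 to -0.33 on P5 Back, -0.40 to 0.02 on P1 Tail and 0.28 to 0.51 on P5 Tail. The mean of the suprabasal list was highest on P1 Back, where the sheath genes were lowest, but its genes did not all follow it. Krt2 and Krt16 averaged 5.54 and 4.07 there, whereas Krt77 averaged -0.98 there and 3.84 on P5 Tail. Ivl and Flg also averaged less on P1 Back (0.09 and 0.07) than on P5 Tail (0.56 and 0.39). The part of melanocyte, adipocyte and epidermal content in the differences of the sheath genes was not tested.

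Without P1 Back 1 and P1 Back 6, P1 Back 5 stood alone for its group, so only medians of these lists are given. For P5 minus P1 in back they were 0.59 for sheath partners, 2.34 for shaft keratins, 0.64 for melanocyte and 0.89 for adipocyte genes. The suprabasal median was -1.64 and the basal median -0.52. For tail minus back at P1 the medians were 0.78 for melanocyte genes, 2.58 for adipocyte genes and 0.10 for sheath partners.

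**Figure D3:**
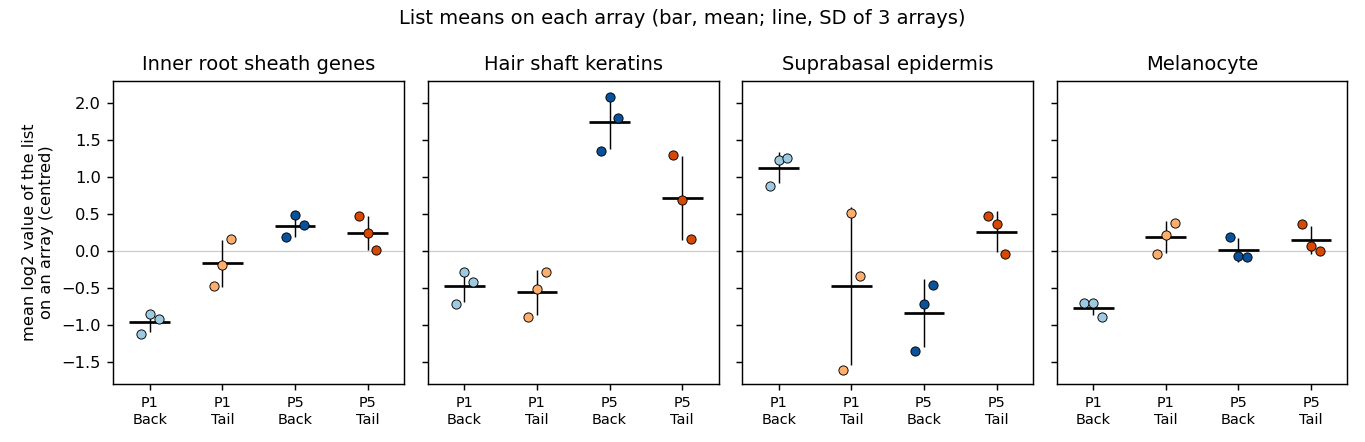
Mean centred log2 value of a list on each array (y axis) by labelled age and site (x axis), for the sheath genes, hair shaft keratins, suprabasal epidermis and melanocyte genes. Points are arrays, bars are means and lines the SD of 3 arrays. On P1 Back the sheath list lies between -1.12 and -0.85 while the suprabasal list lies between 0.88 and 1.26.

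The 8 genes followed one another closely from array to array. Over the 12 arrays the correlation between pairs of the 8 had a median of 0.94 (0.86 to 0.98, 28 pairs), and after the group means were taken away a median of 0.80 (0.69 to 0.96). The points share the array and its preparation, so these correlations are descriptions. Inside the groups the same arrays were high or low: P1 Tail 6 was the highest and P1 Tail 4 the lowest of its group in all 8 genes, P5 Back 2 was the highest of its group in all 8, P1 Back 1 the lowest in all 8, and P5 Tail 2 the highest in 6. Hair shaft keratins deviated with the sheath genes within groups (median 0.78, pairs from -0.37 to 0.96), and suprabasal genes did so less (0.55, 0.07 to 0.89). For dermal papilla and dermal fibroblast genes the medians were near 0 (-0.13 and -0.17), over pairs of both signs (-0.84 to 0.62 and -0.74 to 0.45).

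Among pairs, Krt25 was nearest to Krt73 (r = 0.977), a keratin of the other type, and Krt26 and Krt71 were farthest apart (r = 0.861). Krt72, the gene that also rose in tail, was the farthest member for Krt25, Krt27 and Krt73. Of the genes outside the 8, Krt28 was closest to Plekhg1 (r = 0.987), Tchh to Prr9 (r = 0.986), Krt72 to Sprr1a (r = 0.984) and Krt71 to Prss53 (r = 0.980).

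The genes whose pattern over the 12 arrays was most like the mean of the 8, each scaled to unit SD, were Crym (r = 0.979), Prr9 (0.972), Krt75 (0.972), Sprr1a (0.966), Mlana, Plekhg1, Calhm5 and Tchhl1 (0.962 each), and Fbp1 and Trim2 (0.960 each). Krt75 and Tchhl1 are on the list of sheath partners, and Mlana, a melanosome protein, is a melanocyte marker. Of 18185 other genes, 241 had r above 0.8, 50 above 0.9 and 10 above 0.95. Crym, which encodes a thyroid hormone binding protein, was 1.02 higher on tail arrays at P1 (limma adjusted p = 0.018) and rose by 1.89 in back (adjusted p = 0.00047) and by 0.88 in tail (adjusted p = 0.035). Likeness here is over arrays of 4 groups and says nothing of shared function or control.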

How the data were processed

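Dermis of P1 and P5 tail and back skin was profiled on 12 arrays in 4 groups of 3, grouped by the sample titles. GeneSpring was used by the authors for RMA normalisation. The deposited table gives log2 values of 45101 probe sets, each centred on its median over the 12 arrays (0 within 1e-06 for every probe set). The log base was not stated and was taken as that of RMA. The study's filter on the lowest signals could not be repeated, because centring removed levels. The precision is limited by the number of arrays, 3 in a group.

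Without 64 controls, 45037 probe sets remained, of which 34945 with exactly 1 symbol (932 had several and 9160 none here) were averaged into 18193 genes. One limma 3.58.1 model (R 4.3.3, lmFit, eBayes) held the 4 groups and 12 arrays, with 8 residual and 4.65 prior degrees of freedom. Two-sided p-values were adjusted by Benjamini-Hochberg over all genes, with a threshold of 0.05. No gene set test was run, and the procedure was tested on simulated data. The labels do not say whether the arrays of a group came from separate extractions beyond triplicate mice, so p-values measure the spread between arrays.

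The 8 genes and the lists of other genes were chosen with earlier results of these data known. Named genes are the 8, those called in each list, the 3 of each list that differed most between sites at P5, the nearest gene of each of the 8, and the 10 genes most like their mean, and not all are named. Krt74, Krt39, Krt40 and Krt85 had no probe set of their own here. Alternatives were array centring, robust eBayes, weighting of arrays, a replicate block, fitting only the groups compared, the methods' t-test, probe sets of shared sequence left out, the most variable probe set of a gene, and leaving out arrays. Promoter sequences are from a RefSeq table (GRCm38.p6), which held all 8 genes.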

Additional observations from a re-analysis of the deposited data

Results flagged for a closer look

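For 3 of the 8 sheath genes the difference between sites changed with age by limma's interaction term: Krt25 by -0.83, Krt28 by -1.10 and Krt73 by -1.07 on the log2 scale, with adjusted p-values of 0.016, 0.028 and 0.023. In these genes tail minus back was 0.56, 1.01 and 0.74 at P1 and -0.27, -0.08 and -0.33 at P5. With 1 of the 12 arrays left out in turn, the term passed in 10 of 12 fits for Krt25, 8 of 12 for Krt73 and 4 of 12 for Krt28.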

How the results depend on the processing

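The rise of the sheath genes in back from P1 to P5 kept its 8 calls when any 1 array was left out. It also kept them under the other alternatives, except the methods' t-test after Benjamini-Hochberg, where 0 passed and 0.055% of all genes did. The fit without P1 Back 1 and P1 Back 6 left P1 Back 5 alone in its group, so its calls are not counted here. For tail minus back at P1, 7 genes were called. The number was 0 with the methods' t-test, which called 6 of all genes and gave all 8 an unadjusted p under 0.05. It was 5 where only the P1 arrays were fitted, 6 with the most variable probe set of each gene and 8 with array weights. With 1 array left out it was 1 to 7. Adjusted over all probe sets by limma, 6 passed, and Krt27 (adjusted p = 0.063) and Krt71 (0.18) did not. At P5 the number called was 0 under every alternative run. For P5 minus P1 in tail, where 1 gene was called, the count fell to 0 under array weights, 0 in a fit of the tail arrays alone and 0 with the methods' t-test. For the interaction, where 3 were called, it was 6 with array weights and 0 to 5 with 1 array left out. The fit of the groups compared alone and the methods' t-test were not run for the interaction. Array weights raised the calls over all genes at P1 from 722 to 3650.

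With the replicate block, which uses the array numbers of the titles, 6 genes were called for tail minus back at P1, 0 at P5, 8 for P5 minus P1 in back, 1 in tail and 6 for the interaction. Deviations from the group means of same-numbered tail and back arrays correlated at 0.264, -0.014, 0.173 and -0.021 over genes, so the numbers were not taken as pairs.

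Some small differences changed sign: Tchh, tail minus back at P5, was -0.01 with array weights and -0.16 to 0.26 with 1 array left out, and Krt28 there was -0.26 to 0.04. For P5 minus P1 in tail, Krt25 was -0.03 with array weights and -0.01 to 0.21 with 1 array left out, and Krt73 was -0.04 with array weights. None of these passed the threshold in any fit, and the cause was not tested.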

Other observations

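The longest run of letters shared between the 250 bases before the starts of any 2 of the 8 genes was 14 bases, ttgcaagcccagca, in Krt71 (from 196 bases before the start) and Krt73 (from 154), neighbours on chromosome 15. Of 32851 mouse promoters, searched on the gene's own strand, 2 held these letters, those of Krt71 and Krt73 themselves. Krt27 on chromosome 11 and Krt71 on chromosome 15 shared 12 bases that span the TATA box, gcatatataaag, from 20 and 45 bases before the start. Counting those of Krt27 and Krt71, 3 promoters held them. In the data Krt71 and Krt73 correlated at 0.963 over the 12 arrays. Krt25 and Krt73 correlated at 0.977, and their longest shared run was 8 bases, which 141 promoters held. Whether shared letters go with correlation was not tested.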
